A study of Mus musculus with 4 samples.

Results

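The 39 genes described here are interferon response genes, given as a list of gene symbols; the rule that picks their rows uses no difference between the groups, although the list was drawn up with earlier results of these data known. All 39 were found among the 24016 symbols of the deposited count tables, and each was represented by its transcript with the highest total count over the 4 libraries. RNA was measured by RNA-seq in haematopoietic stem cells (HSCs) sorted from bone marrow of C57BL/6 mice aged 4 months, as lineage-negative cells with Sca-1, c-Kit and CD150 and without CD34 and Flt3. The groups were NHD13+ transgenic mice (2 libraries) and wild-type (WT) mice (2 libraries). NHD13 is a fusion of the nucleoporin gene Nup98 with the homeobox gene Hoxd13, and mice that carry it serve as a model of myelodysplastic syndrome. In the NHD13 strain the fusion is driven by Vav regulatory elements, which are active across blood cells and not in stem cells alone. The labels do not say whether each library came from 1 animal or from a pool, nor whether the WT mice were littermates, so the p-values reflect the spread between libraries, which may be technical.

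Interferons are secreted proteins that warn cells of infection. Type I interferons bind the receptor of Ifnar1 and Ifnar2, whose kinases Tyk2 and Jak1 activate Stat2, which with Irf9 is part of a complex that binds the interferon-stimulated response element (ISRE) in target promoters. Interferon gamma binds Ifngr1 and Ifngr2 and acts at a different element, the gamma-activated site (GAS). In mouse HSCs interferon is known for driving dormant cells into the cell cycle, and stem cells are known to keep some interferon-stimulated genes on without infection.

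In NHD13 HSCs 3 of the 39 interferon response genes (7.69%) passed the test at an edgeR adjusted p under 0.05, where 4.28% of all genes did. Oas2 and Oas3, neighbouring genes for enzymes that sense double-stranded RNA, rose 4.32-fold and 1.93-fold, and Irf2, a repressor of interferon target genes, fell to 0.65 of its WT level. The other 36 members did not pass the test. The largest difference among them was in Ifitm1, for a membrane protein that blocks virus entry, at 0.366 of its WT level with an adjusted p of 0.0581 (edgeR). The median log2 fold change of the 39 members, NHD13 over WT, was 0.08, beside 0.00 over all 14853 genes tested.

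Promoter sequences are shown for a called and an uncalled gene of the Oas locus, for the member called lower, and for the Ifitm neighbours with unlike values. They are from RefSeq (build GRCm38.p6, not the build of the counts) and run 5′ to 3′ on the gene's own strand, from 250 bases before the start site to 50 bases after it. Capitals mark matches to the ISRE core (GAAA, any 2 bases, GAAA) on either strand, which may overlap. The windows are chr5:120777610-120777909 (minus strand) for Oas3, chr5:120907476-120907775 (minus) for Oas1a, chr8:46739495-46739794 (plus) for Irf2, chr7:140967826-140968125 (plus) for Ifitm1 and chr7:141010695-141010994 (minus) for Ifitm3.
Oas3: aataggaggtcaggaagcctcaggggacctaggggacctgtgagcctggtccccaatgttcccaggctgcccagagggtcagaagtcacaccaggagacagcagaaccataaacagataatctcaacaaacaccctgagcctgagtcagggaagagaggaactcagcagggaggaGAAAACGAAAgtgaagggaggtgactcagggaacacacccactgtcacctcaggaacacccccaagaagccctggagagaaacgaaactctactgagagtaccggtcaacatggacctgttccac
Oas1a: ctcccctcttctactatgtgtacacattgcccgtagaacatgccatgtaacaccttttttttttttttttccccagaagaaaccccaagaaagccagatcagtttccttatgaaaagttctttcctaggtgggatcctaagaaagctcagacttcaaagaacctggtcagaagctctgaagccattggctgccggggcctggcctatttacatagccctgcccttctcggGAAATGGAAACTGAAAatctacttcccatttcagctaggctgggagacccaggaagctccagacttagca
Irf2: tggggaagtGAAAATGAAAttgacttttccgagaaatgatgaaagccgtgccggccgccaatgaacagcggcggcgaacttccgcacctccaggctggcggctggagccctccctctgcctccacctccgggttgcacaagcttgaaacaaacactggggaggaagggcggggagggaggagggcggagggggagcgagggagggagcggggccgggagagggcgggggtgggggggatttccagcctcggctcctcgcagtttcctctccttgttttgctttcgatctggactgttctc
Ifitm1: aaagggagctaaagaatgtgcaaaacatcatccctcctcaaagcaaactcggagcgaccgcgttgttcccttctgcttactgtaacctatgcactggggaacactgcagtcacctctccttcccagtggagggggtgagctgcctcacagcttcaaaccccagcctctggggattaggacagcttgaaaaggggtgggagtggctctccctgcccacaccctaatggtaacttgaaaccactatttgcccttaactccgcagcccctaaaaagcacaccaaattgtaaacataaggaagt
Ifitm3: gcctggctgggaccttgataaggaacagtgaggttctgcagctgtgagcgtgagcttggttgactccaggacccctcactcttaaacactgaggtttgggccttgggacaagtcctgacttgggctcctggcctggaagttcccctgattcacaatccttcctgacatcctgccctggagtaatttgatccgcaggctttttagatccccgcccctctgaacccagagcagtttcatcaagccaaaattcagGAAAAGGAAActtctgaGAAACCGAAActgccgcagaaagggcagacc

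Oas3 has 1 match, which begins at position -75 relative to the start site. Oas1a, which lies further along the Oas locus and not next to Oas3, has 2 overlapping matches. Irf2 has 1 match, at position -241. Ifitm1 has none in this window and Ifitm3 has 2, which says only where these letters occur. Of the 30 members with a promoter in the RefSeq table, 17 (56.7%) held the ISRE core, against 1079 of all 27025 genes in the table (3.99%). The GAS motif TTCNNNGAA, searched on both strands, was in 11 of the 30 members (36.7%), against 2582 of all genes (9.55%). Members with and without the ISRE core thus had log2 fold changes on both sides of 0. The median log2 fold change was -0.07 among the 17 members with the ISRE core, which ranged from -0.62 to 0.95, and 0.06 among the 13 without it, which ranged from -1.45 to 1.11. Oas1b, Oas2, Dhx58, Usp18, Mx1, Mx2, Rtp4, Parp9 and Parp14 have no entry in the table.

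Totals over 1 transcript per gene were 35025974 and 48423689 counts in NHD13 and 42664018 and 37070939 counts in WT. CPM below are TMM-scaled counts relative to library size, and a gene is called at an adjusted p under 0.05 in edgeR's quasi-likelihood test over all genes. The sorted cells held the stem cell transcripts Kit at 992 to 1271 CPM, Slamf1 (which encodes CD150) at 117 to 143 CPM and Mecom at 203 to 300 CPM in all 4 libraries. Other genes of the gate and of stem cells differed: the stem cell factor Hlf was at 113 and 71.0 CPM in NHD13 and 284 and 320 CPM in WT (called lower, edgeR adjusted p = 0.0373), Cd34 at 51.6 and 21.4 CPM in NHD13 and 120 and 138 CPM in WT, and Flt3 at 59.0 and 4.33 CPM in NHD13 and 10.4 and 15.4 CPM in WT. Several markers of other cells were highest in NHD13 library 1: 7 neutrophil genes summed to 2707 and 352 CPM in NHD13 and 312 and 264 CPM in WT, and 8 monocyte and macrophage genes to 1330 and 419 CPM in NHD13 and 439 and 437 CPM in WT. Both NHD13 libraries lay above both WT libraries in 5 of the 8 monocyte and macrophage genes, where 30.1% of all genes did. Of these, Cd68 was at 35.5 and 31.8 CPM in NHD13 and 10.5 and 10.6 CPM in WT (called higher, edgeR adjusted p = 0.0151). Ly6c2 was at 211 and 86.4 CPM in NHD13 and 22.9 and 10.1 CPM in WT. Lyz2, C1qa and C1qb overlapped between the groups, with log2 fold changes of 0.672, -0.415 and -0.798. The 4 mast cell and basophil genes summed to 134 and 112 CPM in NHD13 and 9.15 and 7.01 CPM in WT. A different gene carried each NHD13 sum. Ms4a2 was at 111 and 4.45 CPM in NHD13 and 0.621 and 1.07 CPM in WT. Cpa3 was at 21.3 and 107 CPM in NHD13 and 3.98 and 3.09 CPM in WT. Neither was called (edgeR adjusted p = 0.115 and 0.0689). Fcer1a was at 0 and 0.0204 CPM in NHD13 and 0.920 and 1.70 CPM in WT (called lower, edgeR adjusted p = 0.0444). Mcpt8 overlapped between the groups, with a log2 fold change of -1.26. For plasmacytoid dendritic cells, which make much type I interferon, 6 markers were summed. They came to 2.59 and 3.69 CPM in NHD13 and 15.2 and 2.55 CPM in WT. Klk1 gave 9.955 CPM of the WT 1 sum, with 433 counts there and 0 in WT 2. Of the 6 markers 5 were under 1 CPM in both NHD13 libraries, against 2 of 6 in both WT libraries. Siglech and Pacsin1 were lower in both NHD13 libraries. Ccr9, at 1.72 and 2.71 CPM in NHD13 and 1.54 and 0.794 CPM in WT, and Cox6a2, under 1 CPM throughout, were higher in both. The 10 markers of T and NK cells, a source of interferon gamma, summed to 34.8 and 149 CPM in NHD13 and 45.2 and 48.8 CPM in WT. Klrb1c alone gave 29.4 and 48.8 CPM of this in NHD13 and 39.2 and 44.8 CPM in WT. Cd3e, Cd3g and Gzmb were at 36.3, 30.8 and 30.3 CPM in NHD13 library 2 and at most 1.02 CPM elsewhere. Cd3d, Cd8a, Gzma, Prf1 and Ncr1 were under 1 CPM in all 4 libraries. The part of such cells in the results was not tested, and in these bulk samples fewer cells of a type and less RNA per cell cannot be told apart.

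All 39 members passed the filter on low counts, the lowest being Mx1 with 146 and 276 counts in NHD13 and 143 and 245 counts in WT. Of all genes tested 2.07% were called higher in NHD13 and 2.22% lower, and among the 39 members 2 were called higher (5.13%) and 1 lower (2.56%). Log2 fold changes were above 0 in 22 of 39 members (56.4%), where 50.1% of all genes were. Both NHD13 libraries lay above both WT libraries in 13 members, where 30.1% of all genes did, and below both in 8 members, where 30.3% of all genes did. Log2 fold changes beyond 1 in either direction occurred in 3 of 39 members (7.69%), Oas2, Oasl1 and Ifitm1, against 18.1% of all genes. The 95% interval of the fold change lay within 2-fold either way for 29 of 39 members (74.4%) and for 56.6% of all genes. DESeq2 called 4 members higher (Oas2, Oas3, Oasl1 and Isg15), where it called 7.89% of all genes higher, and 3 members lower (Irf2, Ifitm1 and Ifi44), where it called 9.25% lower. limma-voom called Oas2 and Oas3 higher, where it called 1.80% of all genes higher, and Irf2 lower, where it called 2.37% lower. At an unadjusted edgeR p under 0.05 there were 5 members higher, where 12.9% of all genes were, and 4 lower, where 13.9% were: Irf7 and Ifih1 besides the genes just named.

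**Figure D1:**
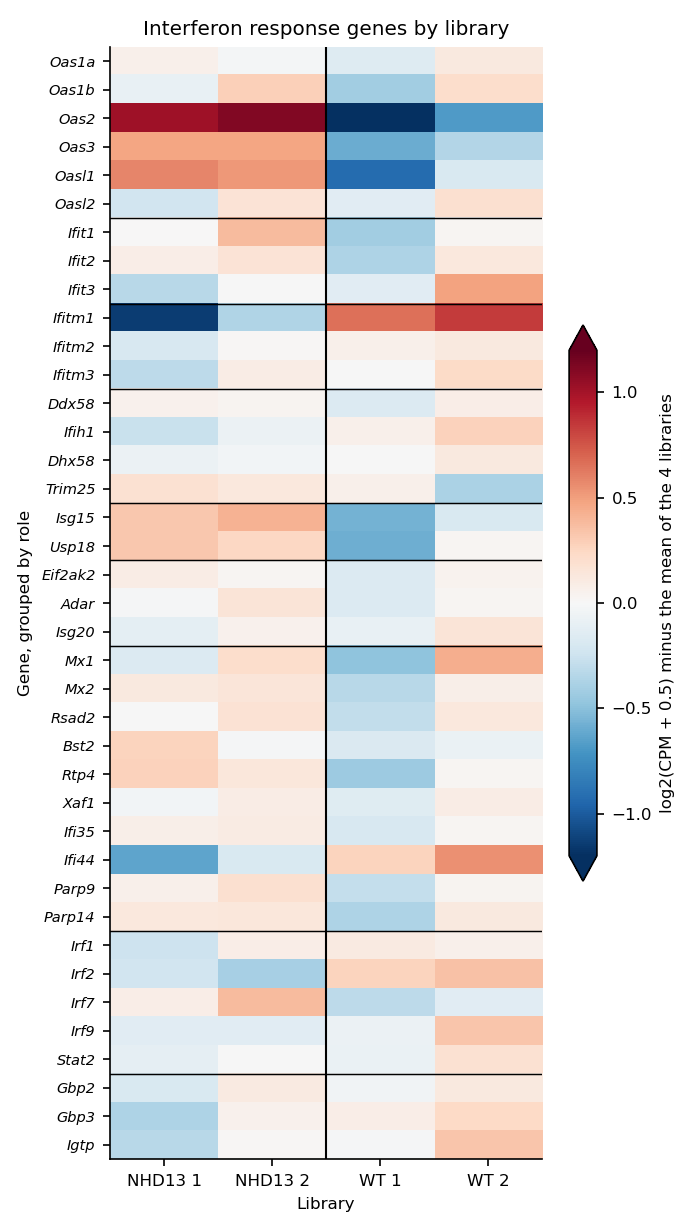
Each row is 1 of the 39 members, grouped by role, and each column 1 library, NHD13 left of WT, and colour is the library's log2(CPM + 0.5) minus the gene's mean over the 4 libraries (red higher, blue lower). Oas2, Oas3, Oasl1 and Isg15 are red in both NHD13 libraries, Ifitm1, Ifi44 and Irf2 are blue in both, and most other rows are pale.

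**Figure D2:**
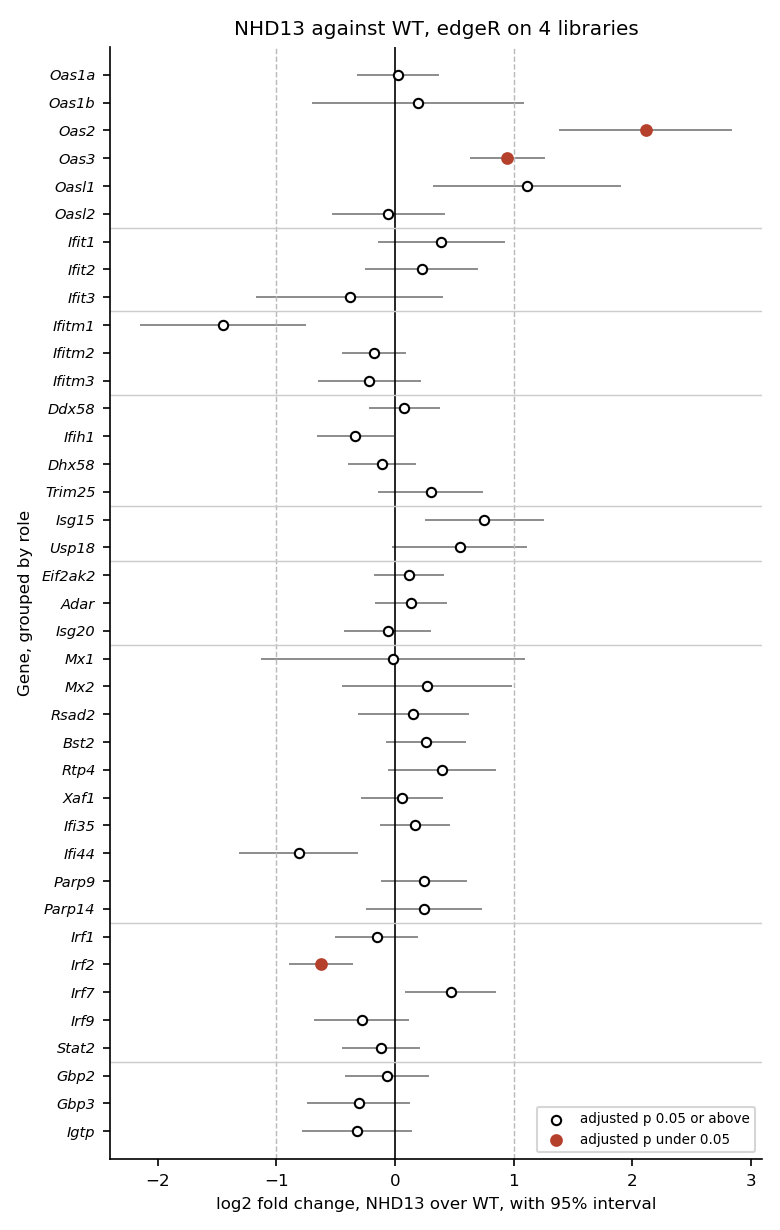
Points are log2 fold changes, NHD13 over WT, for the 39 members by role, and bars are 95% intervals from edgeR, with filled points for the 3 called members. Most intervals include 0, and only the 3 called members, Oasl1, Ifitm1, Isg15, Ifi44, Irf7 and Ifih1 have intervals that do not.

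The 2-5A synthetases make oligoadenylate messengers when they bind double-stranded RNA, and these messengers switch on RNase L, which cuts RNA. Of the 6 members of this role 2 rose, and the median log2 fold change was 0.57. Oas2 had 2077 and 3161 counts (60.5 and 64.5 CPM) in NHD13, against 461 and 671 counts (10.6 and 18.4 CPM) in WT. The groups did not overlap, and the lower NHD13 library was over 3 times the higher WT library. The log2 fold change was 2.11 ± 0.28 (SE, n = 2 and 2) with an edgeR adjusted p of 0.0349. Oas3, the largest synthetase, had 2959 and 4215 counts (86.1 and 86.0 CPM) in NHD13, against 1775 and 1773 counts (40.8 and 48.5 CPM) in WT. Its NHD13 libraries were nearly equal and its groups did not overlap, with a log2 fold change of 0.95 ± 0.12 and an edgeR adjusted p of 0.0321. Leaving out a library leaves 1 library in a group, so single calls are not read from such fits and only effect sizes are given. The log2 fold change then stayed between 1.76 and 2.56 for Oas2 and between 0.82 and 1.08 for Oas3.

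Oasl1, an OAS-like protein known in mice to hold back translation of Irf7, had 554 and 752 counts (16.1 and 15.4 CPM) in NHD13, against 232 and 338 counts (5.33 and 9.25 CPM) in WT. Both NHD13 libraries were above both WT libraries, with a log2 fold change of 1.11 ± 0.31, an edgeR adjusted p of 0.108 and a DESeq2 adjusted p of 0.0172. The other 3 members showed no such separation. Oas1a was at 49.5 and 46.6 CPM in NHD13 and 42.7 and 51.5 CPM in WT, Oasl2 at 129 and 169 CPM in NHD13 and 137 and 173 CPM in WT, and Oas1b, which is truncated in C57BL/6 mice, at 5.30 and 7.0 CPM in NHD13 and 4.12 and 6.62 CPM in WT. The groups overlapped in all 3, and the log2 fold changes were 0.03, -0.06 and 0.20.

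In the mouse genome Oas2 and Oas3 lie side by side at 1 end of the Oas locus, followed by a run of Oas1 copies that ends with Oas1a and Oas1d. Oas1c was at 10.7 and 12.6 CPM in NHD13 and 8.37 and 11.3 CPM in WT, and Oas1g at 9.87 and 10.8 CPM in NHD13 and 8.16 and 9.39 CPM in WT, with log2 fold changes of 0.25 and 0.24 that were not called. The called genes were thus the 2 at that end of the locus. The Oas1 copies resemble each other in sequence, and how reads that match several places were counted is not known from the labels, so values of single Oas1 genes are uncertain. Oasl1 and Oasl2 form a separate neighbouring pair, with log2 fold changes of 1.11 and -0.06.

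**Figure D3:**
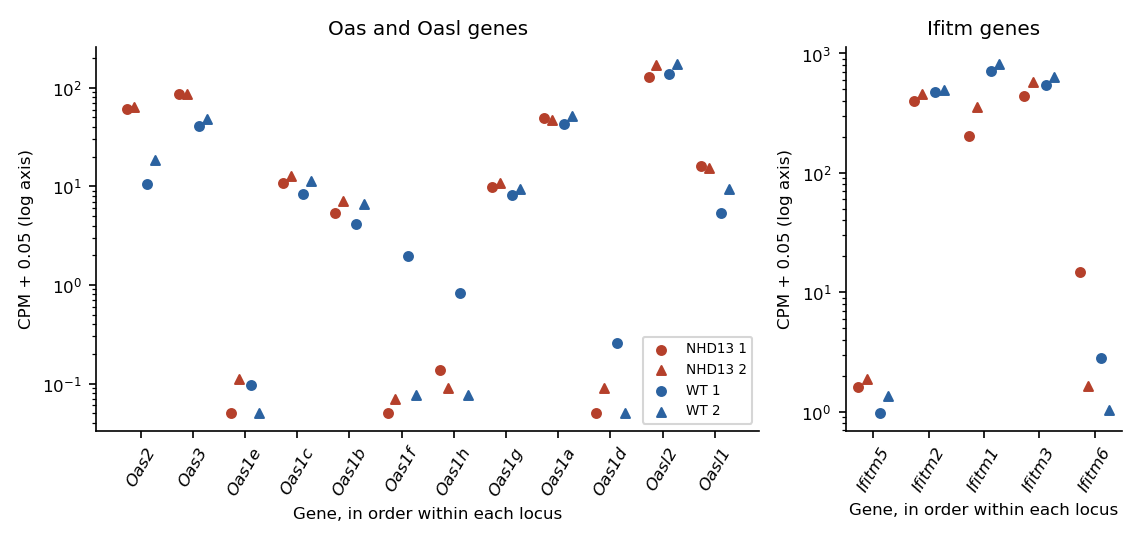
CPM plus 0.05 on a log axis in each NHD13 (red) and WT (blue) library, for Oas and Oasl genes (left) and Ifitm genes (right), in order within each locus. Oas2 and Oas3 are higher in NHD13 while Oas1a and Oasl2 are not, and Ifitm1 is lower in NHD13 while its neighbours Ifitm2 and Ifitm3 lie close to WT.

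The Ifitm genes encode small membrane proteins that stop viruses from fusing with the cell, and stem cells are known to carry much of them. Per kilobase of transcript they had the highest levels of the 38 members whose length was known: Ifitm1, Ifitm2 and Ifitm3 averaged 380, 657 and 749 CPM per kb in NHD13, against 1038, 743 and 871 CPM per kb in WT. Ifitm1 was thus the third highest member in NHD13 and the highest in WT. It had 7048 and 17321 counts (205 and 354 CPM) in NHD13, against 31218 and 29581 counts (718 and 810 CPM) in WT. Each NHD13 library was below 0.5 of each WT library, although the NHD13 libraries differed from each other more than the WT libraries did. The log2 fold change was -1.45 ± 0.27, and the edgeR adjusted p of 0.0581 missed the threshold. It was 0.0424 when genes needed 1 CPM in both libraries of a group, 0.0979 with no filter, 1.61e-07 in DESeq2 and 0.0515 in limma-voom. The log2 fold change of Ifitm1 lay between -1.89 and -1.10 when each library was left out in turn.

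Ifitm2 had 13729 and 22596 counts (400 and 461 CPM) in NHD13, against 20786 and 18085 counts (478 and 495 CPM) in WT. Ifitm3, which acts on viruses in endosomes, had 15004 and 28337 counts (437 and 578 CPM) in NHD13, against 23599 and 23309 counts (543 and 638 CPM) in WT. Their log2 fold changes were -0.18 ± 0.10 and -0.22 ± 0.17, with edgeR adjusted p of 0.336 and 0.460. Ifitm1 lies between these genes in the genome, so the large difference was in the middle gene of the 3. Ifitm7, a family member outside the list and named after its value was seen, was at 0.524 and 0.612 CPM in NHD13 and 8.28 and 8.27 CPM in WT, and was called lower (edgeR adjusted p = 0.0136). Ifitm5 and Ifitm6, also outside the list, were not called by edgeR. Ifitm5 was higher in both NHD13 libraries, at 1.57 and 1.84 CPM against 0.920 and 1.31 CPM in WT. Ifitm6 overlapped between the groups, at 14.7 and 1.59 CPM in NHD13 and 2.78 and 0.985 CPM in WT. Ifitm genes resemble each other and could share reads.

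The Ifit proteins bind viral RNA that lacks the cap marks of host RNA. edgeR, DESeq2 and limma-voom called none of the 3, 0 had an unadjusted edgeR p under 0.05, and the groups overlapped in each. Ifit1 had 1887 and 3499 counts (54.9 and 71.4 CPM) in NHD13, against 1780 and 2031 counts (40.9 and 55.6 CPM) in WT, a log2 fold change of 0.39 ± 0.21 (edgeR adjusted p = 0.299). Ifit2 had 2405 and 3632 counts (70.0 and 74.1 CPM) in NHD13, against 2222 and 2645 counts (51.1 and 72.4 CPM) in WT, a log2 fold change of 0.22 ± 0.19 (edgeR adjusted p = 0.493). Ifit3 had 231 and 421 counts (6.72 and 8.59 CPM) in NHD13, against 338 and 446 counts (7.77 and 12.2 CPM) in WT, a log2 fold change of -0.38 ± 0.31 (edgeR adjusted p = 0.477). In the Ifit locus the signs thus differed between genes, within wide errors.

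The RNA sensors detect viral RNA in the cytoplasm and start interferon production. edgeR, DESeq2 and limma-voom called none of the 4 members, and 1, Ifih1, had an unadjusted edgeR p under 0.05. Ifih1, which encodes MDA5, had 3294 and 5386 counts (95.9 and 110 CPM) in NHD13, against 5218 and 5094 counts (120 and 139 CPM) in WT, and the groups did not overlap (log2 fold change -0.33 ± 0.13, edgeR adjusted p = 0.180). Trim25, a ubiquitin ligase that activates RIG-I, had 1887 and 2586 counts (54.9 and 52.8 CPM) in NHD13, against 2193 and 1354 counts (50.4 and 37.1 CPM) in WT, with a log2 fold change of 0.30 ± 0.17 (edgeR adjusted p = 0.330). Dhx58, which encodes the regulator LGP2, had 1415 and 2074 counts (41.2 and 42.3 CPM) in NHD13, against 1879 and 1720 counts (43.2 and 47.1 CPM) in WT, with a log2 fold change of -0.11 ± 0.11 (edgeR adjusted p = 0.565). Ddx58, which encodes RIG-I itself, was at 103 and 102 CPM in NHD13 and 88.8 and 105 CPM in WT. The 95% intervals of all 4 members of this role, the ligase Trim25 included, lay within 2-fold either way.

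Isg15 is a ubiquitin-like protein that interferon induces and attaches to other proteins, and Usp18 removes it and also damps the type I receptor. Isg15 had 690 and 1046 counts (20.1 and 21.4 CPM) in NHD13, against 461 and 511 counts (10.6 and 14.0 CPM) in WT, with no overlap. Its log2 fold change was 0.75 ± 0.19, with an adjusted p of 0.0961 in edgeR and 0.0240 in DESeq2. Usp18 had 1960 and 2654 counts (57.0 and 54.2 CPM) in NHD13, against 1311 and 1688 counts (30.1 and 46.2 CPM) in WT, with a log2 fold change of 0.54 ± 0.22 (edgeR adjusted p = 0.202). Both genes had higher values in both NHD13 libraries than in either WT library, and the WT libraries differed more from each other than the NHD13 libraries did.

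Of the 3 effectors that act on RNA, edgeR, DESeq2 and limma-voom called none, 0 had an unadjusted edgeR p under 0.05, and the groups overlapped in each. Adar, which edits adenosines in double-stranded RNA, had 3482 and 5580 counts (101 and 114 CPM) in NHD13, against 3985 and 3815 counts (91.6 and 104 CPM) in WT (log2 fold change 0.14 ± 0.12, edgeR adjusted p = 0.513). Eif2ak2, which encodes the kinase PKR that stops translation, had 2328 and 3170 counts (67.8 and 64.7 CPM) in NHD13, against 2467 and 2391 counts (56.7 and 65.4 CPM) in WT (log2 fold change 0.12 ± 0.11, edgeR adjusted p = 0.560). The exonuclease Isg20 had 1243 and 1990 counts (36.2 and 40.6 CPM) in NHD13, against 1599 and 1590 counts (36.8 and 43.5 CPM) in WT (log2 fold change -0.06 ± 0.14, edgeR adjusted p = 0.816). The 95% intervals of all 3 lay within 2-fold either way, unlike those of Oas2 and Oas3.

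Of the 10 Mx and other antiviral effectors, edgeR and limma-voom called none, DESeq2 called 1 (Ifi44, also the 1 with an unadjusted edgeR p under 0.05), 8 had log2 fold changes above 0, and the median was 0.21. Ifi44, a cytoplasmic protein induced by type I interferon, had 2052 and 4018 counts (59.7 and 82.0 CPM) in NHD13, against 4881 and 5000 counts (112 and 137 CPM) in WT. It was below WT in both NHD13 libraries, against the direction of most of its role, with a log2 fold change of -0.81 ± 0.19 and an adjusted p of 0.0839 in edgeR and 0.00135 in DESeq2. Rtp4, a chaperone of membrane receptors, had 3631 and 4680 counts (106 and 95.5 CPM) in NHD13, against 2803 and 3235 counts (64.5 and 88.5 CPM) in WT (log2 fold change 0.40 ± 0.18, edgeR adjusted p = 0.232). Bst2, or tetherin, which holds budding viruses at the cell surface, had 2638 and 3107 counts (76.8 and 63.4 CPM) in NHD13, against 2453 and 2212 counts (56.4 and 60.5 CPM) in WT (log2 fold change 0.26 ± 0.13, edgeR adjusted p = 0.273). For both of these genes the groups did not overlap, by a small margin.

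The GTPases Mx1 and Mx2, whose genes are defective in C57BL/6 mice, were the lowest members of that role. Mx1 was at 4.25 and 5.63 CPM in NHD13 and 3.29 and 6.71 CPM in WT, and Mx2 at 6.02 and 6.18 CPM in NHD13 and 4.30 and 5.83 CPM in WT. The radical enzyme viperin (Rsad2) was at 41.4 and 46.9 CPM in NHD13 and 33.9 and 45.5 CPM in WT. Parp9 and Parp14, of the ADP-ribosyltransferase family, had log2 fold changes of 0.24 each, Ifi35 of 0.17 and the apoptosis factor Xaf1 of 0.06. For these 7 genes WT library 1 was the lowest of the 4 libraries.

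The transcription factors of the list switch interferon and its targets on or off. Irf2 binds the sites of the activator Irf1 and blocks them, and its loss in mice takes HSCs out of dormancy through type I interferon. Irf2 had 4402 and 5584 counts (128 and 114 CPM) in NHD13, against 7841 and 7020 counts (180 and 192 CPM) in WT. The groups did not overlap and the libraries within each group were close, with a log2 fold change of -0.62 ± 0.10 and an edgeR adjusted p of 0.0488. This call lay at the threshold: the adjusted p was 0.0518 with DESeq2's size factors, 0.0509 without the robust option and 0.0663 with counts summed over transcripts. When each library was left out in turn, the log2 fold change of Irf2 lay between -0.70 and -0.53.

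Irf7, the factor that drives most interferon alpha genes, had 1775 and 3120 counts (51.7 and 63.7 CPM) in NHD13, against 1700 and 1620 counts (39.1 and 44.3 CPM) in WT. The groups did not overlap, with a log2 fold change of 0.47 ± 0.15 and an edgeR adjusted p of 0.134. Irf9, the DNA-binding partner of Stat2, had 4288 and 6135 counts (125 and 125 CPM) in NHD13, against 5695 and 6326 counts (131 and 173 CPM) in WT (log2 fold change -0.28 ± 0.15, edgeR adjusted p = 0.307). Irf1 was at 133 and 168 CPM in NHD13 and 170 and 165 CPM in WT, and Stat2 at 63.3 and 68.2 CPM in NHD13 and 64.8 and 77.8 CPM in WT. Irf1, the activator that Irf2 opposes, and Stat2 thus overlapped between the groups.

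The interferon-inducible GTPases attack the vacuoles of intracellular pathogens and respond mostly to interferon gamma. All 3 had log2 fold changes below 0, but edgeR, DESeq2 and limma-voom called none, and 0 had an unadjusted edgeR p under 0.05. Gbp2 turned to 0.02 without WT 2 and 0.08 without NHD13 1. Gbp3 had 2766 and 5289 counts (80.5 and 108 CPM) in NHD13, against 4787 and 4501 counts (110 and 123 CPM) in WT (log2 fold change -0.31 ± 0.17, edgeR adjusted p = 0.308). Igtp had 4171 and 7579 counts (121 and 155 CPM) in NHD13, against 6591 and 7057 counts (152 and 193 CPM) in WT (log2 fold change -0.32 ± 0.18, edgeR adjusted p = 0.317). Gbp2 had 5397 and 9454 counts (157 and 193 CPM) in NHD13, against 7524 and 7100 counts (173 and 194 CPM) in WT (log2 fold change -0.07 ± 0.14, edgeR adjusted p = 0.786). In each of the 3, NHD13 library 1 was the lowest library.

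The 39 members shared a difference between libraries of the same group that the groups do not describe. WT library 2 was above WT library 1 in 37 of 39 members, all but Trim25 and Irf1, where 49.4% of all genes were. It was at least 1.2 times WT library 1 in 20 of 39 members, where 14.0% of all genes were. NHD13 library 2 was above NHD13 library 1 in 29 of 39 members, where 52.2% of all genes were. The shift was not particular to the 39. Among 105 tested interferon pathway genes outside the list, WT library 2 was above WT library 1 in 77 and at least 1.2 times it in 37. NHD13 library 2 was above NHD13 library 1 in 58 of these 105. Measured from each gene's mean over the 4 libraries, the members' median log2 deviation was -0.02 and 0.10 in NHD13 and -0.16 and 0.12 in WT. The median log2 fold change of the members was accordingly 0.13 without NHD13 1, 0.05 without NHD13 2, -0.06 without WT 1 and 0.21 without WT 2. The sign of the members' median thus rested on WT library 1, whereas Oas2, Oas3, Oasl1 and Isg15 stayed above 0 and Ifitm1, Ifi44 and Irf2 below 0 with each library left out.

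**Figure D4:**
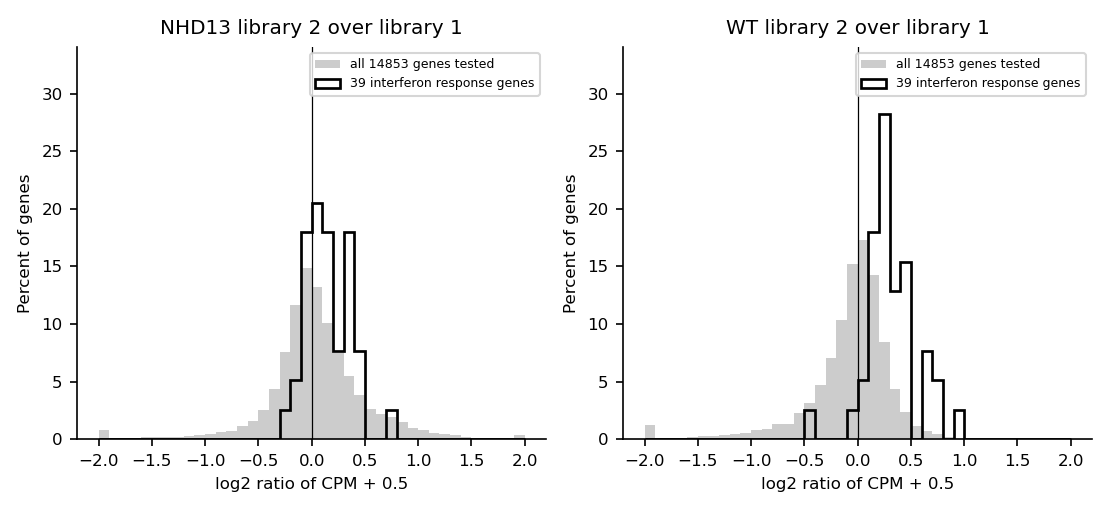
Log2 CPM differences between the libraries of each group, for the 39 members (black outline) and all 14853 genes tested (grey), as percent of genes per bin, NHD13 left and WT right; ratios are of CPM + 0.5 and the end bins hold all values beyond 2. Most members lie right of 0, that is higher in library 2, in 29 of 39 for NHD13 and 37 of 39 for WT.

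The signalling chain upstream of the members was read from lists of pathway genes outside the 39. Of 128 such genes that the deposited data list, 105 were tested, of which 3 were called higher (Ifi27, Ifngr1 and Tyk2) and 2 lower (Tlr3 and Slfn2), with a median log2 fold change of 0.125. That is 5 of 105, near the 4.28% of all genes that were called (2.07% higher and 2.22% lower). DESeq2 called 13 of the 105 higher, where it called 7.89% of all genes higher, and 5 lower, where it called 9.25% lower. At an unadjusted edgeR p under 0.05, 19 were higher, where 12.9% of all genes were, and 6 lower, where 13.9% were. A change of the pathway as a whole was not tested, so the genes below are described singly. The interferons themselves were near the limit of detection. Of 21 ligand genes 10 had 0 counts in every library, and apart from Ifng none passed 11 counts in any library. The 13 interferon alpha genes summed to 2 and 9 counts in NHD13 and 0 and 0 counts in WT, where 3 counts correspond to 0.0690 and 0.0821 CPM, and this limit covers counting error only. Interferon beta (Ifnb1) had 4 and 2 counts in NHD13 and 4 and 0 in WT, and interferon gamma (Ifng) had 6 and 32 counts in NHD13 and 19 and 0 in WT. Ifng, the 1 ligand that passed the filter, had an edgeR adjusted p of 0.744, and interferon kappa (Ifnk) had 11 and 7 counts in NHD13 and 1 and 2 in WT. The ligands were too low for a difference to be tested, Ifng apart, and the sorted cells need not be the source of interferon in marrow.

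Ifngr1, the chain of the interferon gamma receptor that binds the ligand, was at 319 and 351 CPM in NHD13 and 173 and 199 CPM in WT. It rose by a log2 fold change of 0.85 ± 0.11 (edgeR adjusted p = 0.0336), and the groups did not overlap. Tyk2, a kinase of the type I receptor, was at 78.1 and 71.6 CPM in NHD13 and 45.9 and 45.6 CPM in WT, a rise of 0.71 ± 0.10 on the log2 scale (edgeR adjusted p = 0.0381). The other steps did not pass the test: the log2 fold change was -0.21 for Ifnar1, 0.40 for Ifnar2, -0.09 for Ifngr2, -0.17 for Jak1, 0.34 for Jak2, 0.26 for Irf3 and 0.14 for the inhibitor Socs1. The inhibitor Socs3 was at 32.1 and 51.1 CPM in NHD13 and 143 and 84.8 CPM in WT. Its log2 fold change was -1.46 ± 0.34, with an adjusted p of 0.0807 in edgeR and 6.83e-05 in DESeq2. When each library was left out in turn, the log2 fold change lay between 0.75 and 0.95 for Ifngr1 and between 0.65 and 0.78 for Tyk2. A receptor chain and a kinase were thus higher in NHD13, and the other steps named did not pass the edgeR test, though Socs3 passed in DESeq2.

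Tlr3, the endosomal sensor of double-stranded RNA, fell to 0.931 and 0.816 CPM in NHD13, against 4.74 and 4.95 CPM in WT (log2 fold change -2.47 ± 0.34, edgeR adjusted p = 0.0368). In contrast to Oas2 and Oas3, this double-stranded RNA sensor was thus lower in NHD13. Ifi27, a mitochondrial protein induced by type I interferon, rose to 218 and 188 CPM in NHD13, against 72.7 and 75.1 CPM in WT (log2 fold change 1.46 ± 0.11, edgeR adjusted p = 0.0129). Slfn2, a schlafen gene that in mice keeps T cells and monocytes quiescent, fell to 89.0 and 73.9 CPM in NHD13, against 139 and 167 CPM in WT (log2 fold change -0.91 ± 0.15, edgeR adjusted p = 0.0466). Ly6a, which encodes the Sca-1 of the sort gate and is itself interferon-inducible, was at 131 and 77.7 CPM in NHD13 and 273 and 200 CPM in WT. Its log2 fold change was -1.18 ± 0.30, with an adjusted p of 0.0921 in edgeR and 0.000391 in DESeq2. Cells were sorted on the Sca-1 protein, and the part of the gate in the Ly6a RNA level was not tested. Leaving out each library in turn gave log2 fold changes between -2.56 and -2.37 for Tlr3 and between -1.04 and -0.77 for Slfn2. For Ifi27 they lay between 1.35 and 1.57. With counts summed over transcripts Slfn2 had an edgeR adjusted p of 0.0633.

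**Figure D5:**
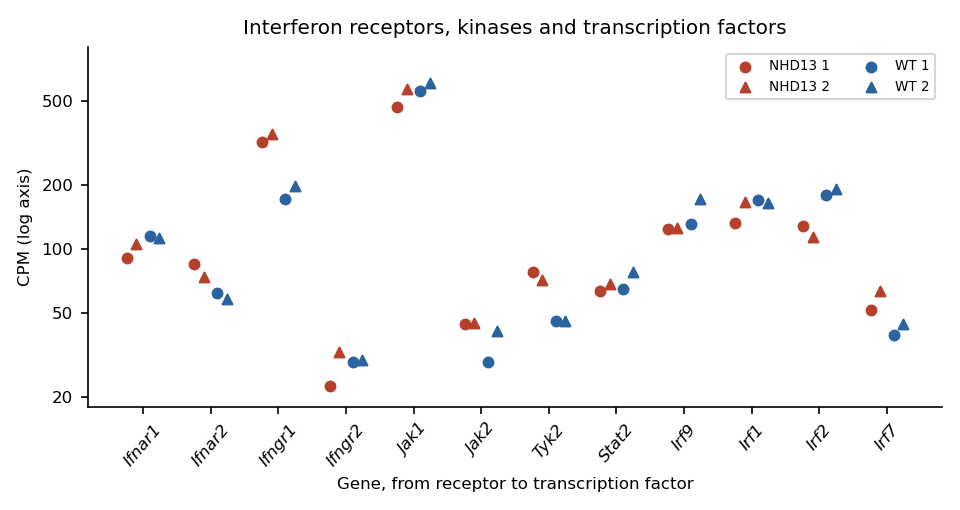
CPM on a log axis in each NHD13 (red) and WT (blue) library for receptors, kinases and transcription factors of interferon signalling. Ifngr1 and Tyk2 lie higher in NHD13 and Irf2 lower, and the other genes lie closer together.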

How the data were processed

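Per the labels' protocols, total RNA of the sorted HSCs was turned into cDNA libraries by SMARTer amplification and read on a HiSeq in paired ends. The submitters' processing notes name Bowtie 0.12.2 and the build mm9. The deposited values are raw counts per RefSeq transcript, 33018 in each table, with no normalisation by the authors. How reads were counted, with or without strand and at several matches, is not given in the sources used; overlapping genes and near-identical copies can therefore share counts.

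Of each symbol the transcript with the highest total was kept. Of the 39 members 12 had more than 1 transcript. Counts were tested over all 14853 genes that passed filterByExpr (minimum count 10), with TMM scaling and the robust quasi-likelihood test of edgeR 4.0.16 (R 4.3.3), NHD13 against WT on all 4 libraries, and Benjamini-Hochberg adjustment. The test was run first on simulated counts. The common biological coefficient of variation was 26.9%, and 2 libraries a group limit the precision more than depth does. The 2 libraries of each group differed beyond sampling noise and were kept as separate replicates.

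DESeq2 1.42.0 and limma 3.58.1 (voom), other scalings and filters, a replicate block, summed transcripts and leaving out each library were alternatives. The members and lists were chosen with earlier results of these data known. Members given with counts, fold change and test were the called ones and up to 3 per role with the smallest unadjusted p; the pathway genes named were the called ones and a set of receptors, kinases and regulators, of which 1 is not reported here. Transcript lengths (GENCODE M21, GRCm38, matched by RefSeq accession for 38 of 39 members) and RefSeq promoters (30 of 39) came from another build than the counts, so no coordinates of the counted transcripts are given.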

Additional observations from a re-analysis of the deposited data

How the results depend on the processing

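Having 2 libraries a group limits every call. Over all genes the 636 calls became 1138 without a filter on low counts, 1066 at 1 CPM in both libraries of a group, 2606 in DESeq2, 402 with summed transcripts, 1923 at an adjusted p under 0.1, 47 at 0.01, and 0 to 990 with a library left out. The 0 calls were without WT 1 and without WT 2, where DESeq2 called 994 and 1131, limma-voom 0 and 0, and edgeR gave 2332 and 2605 genes with an unadjusted p under 0.05. They became 270 without NHD13 1 and 990 without NHD13 2.

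Members called higher numbered 4 in DESeq2, where it called 7.89% of all genes higher, and 0 in edgeR at an adjusted p under 0.01. Members called lower numbered 3 in DESeq2, where it called 9.25% of all genes lower. In edgeR members called lower were 2 at 1 CPM, 3 at an adjusted p under 0.1 and 0 at 0.01. They were 0 with DESeq2's size factors, with the non-robust fit and with summed transcripts, with 4 at an unadjusted p under 0.05 each time. Other pathway genes called higher numbered 5 without the filter, 5 at 1 CPM, 8 at an adjusted p under 0.1 and 0 at 0.01. In DESeq2 they numbered 13 of 105, where 7.89% of all genes were called higher. Those called lower numbered 5 of 105 in DESeq2, where 9.25% of all genes were. They were 1 with summed transcripts, 4 at 0.1 and 0 at 0.01.

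The labels number the libraries 1 and 2 in each group but do not say that a number is shared, and the differences between libraries 1 and 2 correlated at -0.125 over genes between the groups. With a replicate block 107 genes were called, among them 0 members higher, 0 lower, 1 other pathway gene higher and 0 lower. Of all 14853 genes, 3088 had an unadjusted edgeR p under 0.05 in either direction with the block. Among these were 6 members higher and 5 lower, and 16 other pathway genes higher and 8 lower. The edgeR adjusted p with the block was 0.0584 for Oas2, 0.0771 for Oas3, 0.113 for Irf2 and 0.0682 for Ifitm1. With the numbers crossed, chosen after seeing the data, 5 pathway genes were called higher.

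Of 429 member values under settings that kept every library 3 changed sign, all of Mx1: 0.118 in limma-voom, 0.057 with the replicate block and 0.06 with it crossed, on the log2 scale. With a library left out, log2 fold changes ran across 0 for Oas1a (-0.11 to 0.17), Oas1b (-0.11 to 0.58), Oasl2 (-0.26 to 0.14), Ifit2 (-0.013 to 0.50), Ddx58 (-0.045 to 0.21), Isg20 (-0.19 to 0.064), Mx1 (-0.45 to 0.59), Rsad2 (-0.05 to 0.38), Xaf1 (-0.061 to 0.18), Irf1 (-0.33 to 0.011), Stat2 (-0.25 to 0.022), Gbp2 (-0.22 to 0.081), Ifngr2 (-0.38 to 0.16) and Socs1 (-0.41 to 0.55). None of these genes was called. The cause of these changes was not tested.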

Other observations

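Some interferon-inducible genes outside the 39 stood highest in NHD13 library 1, the library with the most neutrophil and monocyte markers. They are named after their values were seen. Slfn1 was at 9.14 and 1.63 CPM in NHD13 and 0.115 and 1.09 CPM in WT, and Slfn4, a schlafen gene of myeloid cells, at 10.0 and 1.71 CPM in NHD13 and 0.851 and 0.985 CPM in WT. Mnda was at 2.68 and 1.18 CPM in NHD13 and 0.276 and 0.383 CPM in WT, and Ifi204, a sensor of DNA, at 6.99 and 2.14 CPM in NHD13 and 0.828 and 2.05 CPM in WT. None of the 4 was called by edgeR. DESeq2 called Slfn1, Slfn4 and Mnda (DESeq2 adjusted p = 0.0343, 0.0152 and 0.0262), where it called 7.89% of all genes higher. All 4 were higher in both NHD13 libraries than in both WT libraries, Ifi204 by a small margin, where 30.1% of all genes were. As the 4 were picked by their values, that count carries no weight. The part of other cells in these values was not tested.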
